A study of Mus musculus with 38 samples.

Results

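The neural plate patterning transcription factors Otx2, Pou3f1, Gbx2, Zic2, Zic5, Pax6, Pax3, Irx3 and Foxb1 were followed through retinoic acid (RA) differentiation of mouse embryonic stem cells (mESCs). These 9 genes were taken by name out of 23479 genes of the bulk table and were looked up in every bulk and single-cell file. E14 mESCs, an established mouse line, were grown in 2i medium with LIF (0 h) and were then exposed to 0.25 µM all-trans RA in basal N2B27 medium, with fresh medium at 48 h. The bulk measurements comprised 2 mESC libraries and 1 library of the whole culture at each of 6, 12, 24, 36, 48, 60, 72, 84 and 96 h. XEN-like cells are named after extraembryonic endoderm. Cells sorted after 96 h into ectoderm-like (PDGFRA-/CD24+) and XEN-like (PDGFRA+/CD24-) cells gave 2 libraries each, which the labels call biological replicates. From the sorted cells, an ectoderm-like culture at passage 5 and a XEN-like culture after 3 weeks were grown in N2B27 with EGF and FGF2, with 1 library each. PDGFRA-negative cells were also sorted by CD24 into quartiles Q1 to Q4 at 48 h and terciles T1 to T3 at 72 h, beside PDGFRA-positive CD24-negative cells at 72 h, again with 1 library each. Single cells were measured by SCRB-seq (3′-end molecule counts, 9 time points from 0 h to 96 h) and by SMART-seq2 (full-length reads, 0, 12, 24 and 48 h), with 1 plate-based set of cells per time point.

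In the embryo, the neural plate is patterned along its length and across its width by transcription factors that divide it into domains. Otx2 marks the future forebrain and midbrain, and Gbx2 the anterior hindbrain; their mutual repression places the boundary between midbrain and hindbrain. Pou3f1 (Oct6) belongs to the post-implantation epiblast and the early neural plate. Pax6 and Irx3 are homeodomain factors of intermediate progenitors of the neural tube, Pax3 of dorsal progenitors and neural crest, and the zinc finger genes Zic2 and Zic5 act at the neural plate and its border. Foxb1 is a forkhead factor of the neural tube, the thalamus and the mammillary body. RA is a posteriorizing signal that induces Hox genes of the hindbrain and spinal cord.

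In the GRCm38 annotation (GENCODE M21), Zic2 (chr14:122475435-122479852, plus strand) and Zic5 (chr14:122456795-122465677, minus strand) are head-to-head neighbours with 9758 bases between their starts. Pax6 lies at chr2:105668900-105697364 (plus strand), Gbx2 at chr1:89927956-89931179 (minus), Pax3 at chr1:78101267-78197134 (minus), Pou3f1 at chr4:124656807-124660655 (plus), Foxb1 at chr9:69757710-69760940 (minus), Irx3 at chr8:91798525-91802067 (minus) and Otx2 at chr14:48657677-48673819 (minus). Genes on the opposite strand overlap Otx2, Pou3f1, Gbx2, Pax6, Irx3 and Foxb1. Whether strand was used in counting is not given in the sources used here, so reads of these members and of their antisense partners may not be separated. Of these partners, Pax6os1 had 1 UMI and Otx2os1 had 2 UMIs over all bulk libraries.

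RefSeq promoter windows (GRCm38.p6, 250 bases before to 50 after a start) were at hand for 5 members, Gbx2, Pax6, Irx3, Otx2 and Zic5, in 9 windows. They were searched on both strands for AGGTCA, the half-site bound by RA receptors and other nuclear receptors. 1 of the 9 windows, that of Zic5, held it, against 16.3% of all 32851 windows. Such a match is a description of the letters and not a binding site. The windows below are shown because Gbx2 was the member found in most mESCs by SMART-seq2, Pax6 was the member called transient and has 2 RefSeq starts that 3′-end counts cannot separate, and Zic5 held the match. They are written 5′ to 3′ on the gene's strand, with the half-site in capitals, which Zic5 holds as its reverse complement.
Gbx2 (chr1:89931127-89931426, minus): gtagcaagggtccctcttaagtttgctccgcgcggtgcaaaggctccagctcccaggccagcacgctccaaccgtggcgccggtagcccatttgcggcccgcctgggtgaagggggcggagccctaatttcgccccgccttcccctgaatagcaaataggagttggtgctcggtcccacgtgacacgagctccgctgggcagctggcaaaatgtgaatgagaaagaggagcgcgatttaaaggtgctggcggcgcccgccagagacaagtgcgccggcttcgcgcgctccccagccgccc
Pax6, upstream start (chr2:105668646-105668945, plus): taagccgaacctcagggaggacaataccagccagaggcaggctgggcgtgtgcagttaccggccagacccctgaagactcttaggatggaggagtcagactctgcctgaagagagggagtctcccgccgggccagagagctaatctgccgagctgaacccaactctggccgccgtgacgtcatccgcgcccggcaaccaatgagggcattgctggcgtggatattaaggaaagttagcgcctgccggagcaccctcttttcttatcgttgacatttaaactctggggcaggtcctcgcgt
Pax6, downstream start (chr2:105682213-105682512, plus): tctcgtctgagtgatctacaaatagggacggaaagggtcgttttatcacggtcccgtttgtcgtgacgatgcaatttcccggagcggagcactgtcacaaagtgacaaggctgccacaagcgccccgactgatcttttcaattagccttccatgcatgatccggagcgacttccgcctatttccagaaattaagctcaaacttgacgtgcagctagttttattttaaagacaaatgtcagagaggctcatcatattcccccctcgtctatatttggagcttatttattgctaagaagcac
Zic5 (chr14:122465609-122465908, minus): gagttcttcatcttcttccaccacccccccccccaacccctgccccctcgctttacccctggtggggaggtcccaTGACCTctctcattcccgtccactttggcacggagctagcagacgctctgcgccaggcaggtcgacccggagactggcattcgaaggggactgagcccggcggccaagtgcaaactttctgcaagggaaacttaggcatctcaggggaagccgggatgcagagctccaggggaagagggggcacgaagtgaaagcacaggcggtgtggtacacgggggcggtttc

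The bulk libraries held between 1063830 and 2459483 UMIs (unique molecular identifiers, each a captured molecule counted once). Values are given as CPM, UMIs scaled to a library of 1000000, with exact 95% Poisson intervals that cover counting error only. The labels were compared with lists of marker genes chosen with earlier results of these data known. The lists include Cd24a and Pdgfra, the genes of the sorted antigens, and genes that the study named from its own single-cell data. The comparison is thus no independent check of the labels. All 9 ectoderm-like markers rose from mESCs to sorted ectoderm-like cells, and all 11 XEN-like markers were higher in sorted XEN-like than in sorted ectoderm-like cells. However, 8 of the 11 XEN-like markers (Pdgfra, Col4a1, Col4a2, Lamb1, Dab2, Gata4, Gata6 and Sox17) also rose from mESCs to sorted ectoderm-like cells, with a median log2 difference of the list of 3.79 against 0.05 over all genes tested. The summed level of the XEN-like markers was 281 and 197 CPM in mESCs, 485 CPM in ectoderm-like replicate 1 and 1779 CPM in replicate 2, and 12049 and 6664 CPM in the sorted XEN-like libraries. In the ectoderm-like culture, Sox1 had no UMI and Sox2 had 2, although both are general neural progenitor genes. In whole cultures, fewer cells of a type and less RNA per cell cannot be told apart.

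Over the time course, Gbx2 and Zic2 were present from mESCs on, Pax6 was highest at 60 h and Foxb1 at 84 h. Gbx2 had a broad maximum from 36 to 60 h, and Zic2 lay between 46.1 and 71.9 CPM from 24 h on. Pou3f1 (36 h), Irx3 (60 h), Pax3 (72 h) and Zic5 (24 h) had their highest values in libraries with fewer than 20 UMIs of the gene, too few for a firm order. Otx2, the forebrain and midbrain gene, never exceeded 4 UMIs in any bulk library. A gene was called induced if its highest level between 6 and 96 h was at least 4-fold above the pooled 0 h level and its largest library held at least 20 UMIs, and transient if it was also at or below 50% of its peak at 96 h. Of the 4 members with that many UMIs, Pax6 and Foxb1 were induced and Pax6 alone was transient, where 13.5% of 8449 genes were induced and 3.69% were transient. Since each time point is 1 culture, no test was run on these values.

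**Figure D1:**
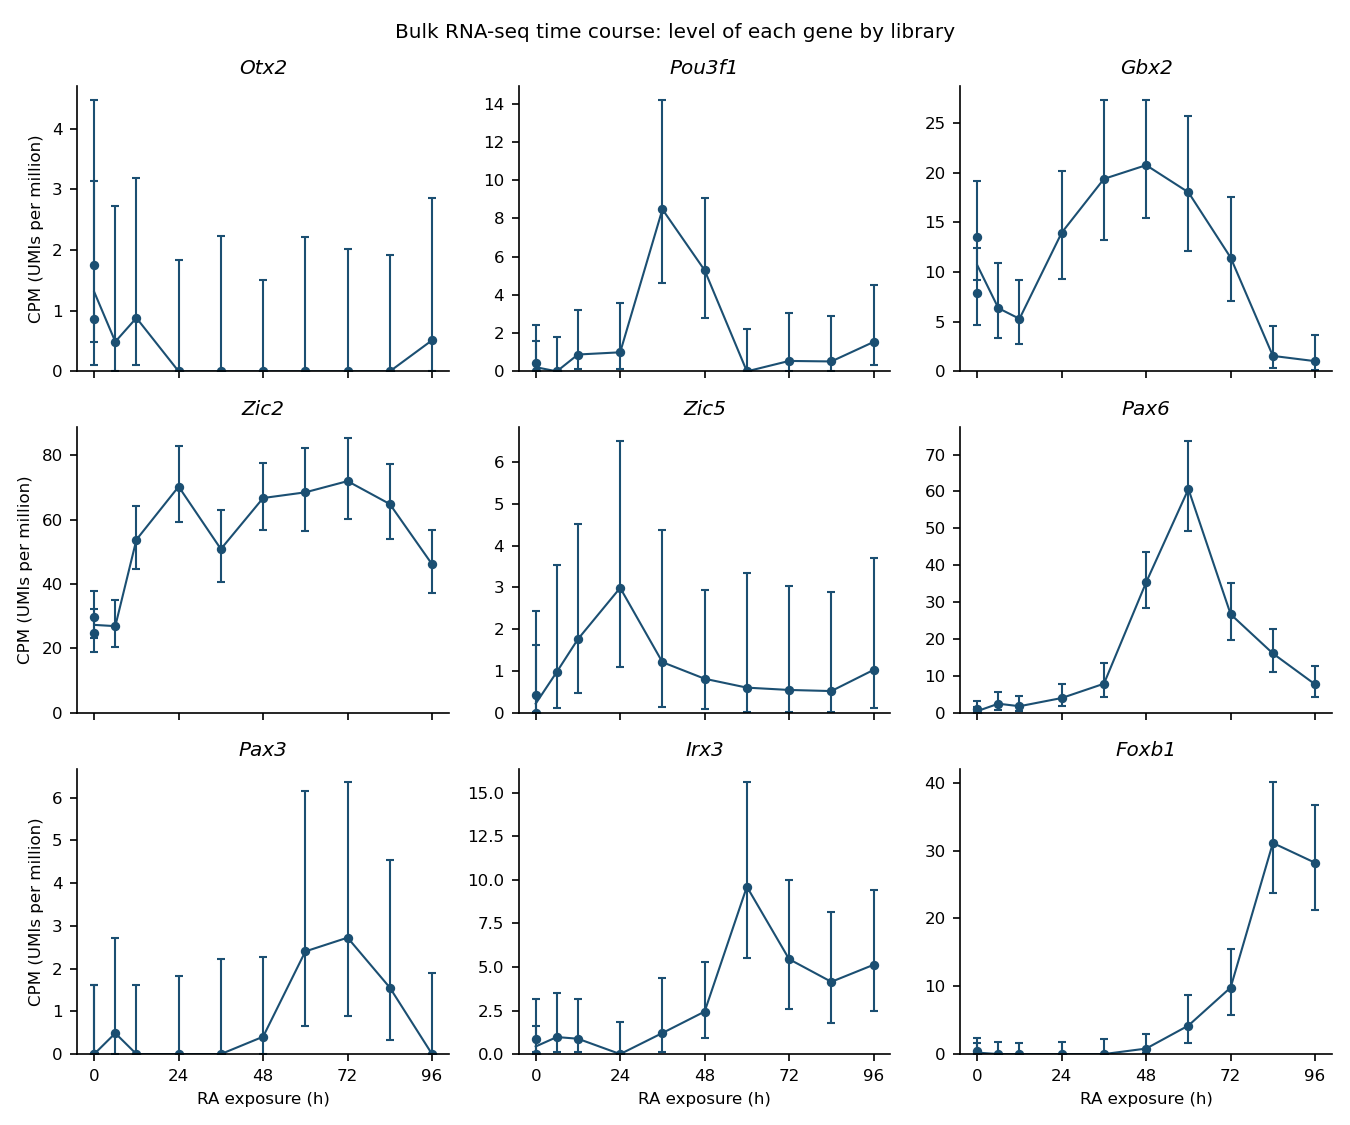
Level of each gene (vertical axis, CPM, a separate linear scale per gene) against hours of RA exposure in the 11 whole-culture libraries, with 2 at 0 h. Points are libraries, bars are exact 95% Poisson intervals and the line joins the time points; Gbx2 peaked at 20.7 CPM at 48 h, Pax6 at 60.7 CPM at 60 h and Foxb1 at 31.1 CPM at 84 h.

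Pax6, which drives eye, forebrain and neural tube programmes, stood at 0.87 and 0 CPM in the mESC libraries, 2.45 CPM at 6 h, 1.76 at 12 h, 3.99 at 24 h, 7.87 at 36 h, 35.4 at 48 h, 60.7 at 60 h, 26.7 at 72 h, 16.1 at 84 h and 7.69 at 96 h. It was near the counting floor until 24 h and formed a single peak around 60 h. The peak was 139-fold above 0 h, a ratio that rests on 2 UMIs at 0 h (95% interval 37.5 to 1163). The first time whose ratio to 0 h lay above 2 with its whole interval was 36 h (18.03-fold, 4.08 to 165). By 96 h Pax6 was at 12.7% of its peak (interval of the ratio 0.068 to 0.219).

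Foxb1 came last. It had 1 UMI over both mESC libraries and none from 6 to 36 h, and then stood at 0.81 CPM at 48 h, 4.20 at 60 h, 9.81 at 72 h, 31.1 at 84 h and 28.2 at 96 h. Its ratio to 0 h first lay above 2 with its whole interval at 60 h. At 96 h it was at 90.6% of its peak, so that a decline was not detectable at this depth (ratio 0.906, interval 0.617 to 1.33).

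Gbx2 was not induced by the 4-fold rule, because mESCs already carried it. It stood at 7.87 and 13.5 CPM in mESCs, 6.36 at 6 h, 5.29 at 12 h, 13.9 at 24 h, 19.4 at 36 h, 20.7 at 48 h, 18.01 at 60 h, 11.4 at 72 h, 1.56 at 84 h and 1.02 at 96 h. The profile thus had low values at 6 and 12 h, a broad maximum at 36 to 60 h and only single molecules at 84 and 96 h. The maximum was 1.94-fold above 0 h (1.29 to 2.93) and the 96 h level was 0.0494 of the maximum (0.0058 to 0.188). The 48 h level and both neighbours, at 36 h and 60 h, overlapped in their intervals.

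Zic2 had the most UMIs of the members in every whole-culture library. Its level was 29.7 and 24.8 CPM in mESCs, 26.9 at 6 h, 53.7 at 12 h, 70.2 at 24 h, 50.8 at 36 h, 66.7 at 48 h, 68.4 at 60 h, 71.9 at 72 h, 64.8 at 84 h and 46.1 at 96 h. From 12 h on every library lay above both mESC libraries (1.97-fold at 12 h, 1.52 to 2.55), with the lowest of the later values at 96 h and 36 h. Its neighbour Zic5 had at most 6 UMIs, at 24 h (2.99 CPM, 1.10 to 6.51), and 0 and 1 UMI in mESCs.

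Pou3f1, the epiblast gene, had 1 UMI in mESCs and at most 2 until 24 h, then 14 UMIs at 36 h (8.47 CPM, 4.63 to 14.2) and 13 at 48 h (5.29 CPM, 2.81 to 9.04), and none at 60 h. It was below the minimum of 20 UMIs, yet its ratio to 0 h at 36 h was 38.8 (5.91 to 1642). Irx3 had 16 UMIs at 60 h (9.61 CPM) against 2 in mESCs, a ratio of 22.02 (5.18 to 197), and stayed between 4.15 and 5.45 CPM from 72 to 96 h. Pax3 was counted in single molecules, with 4 UMIs at 60 h, 5 at 72 h, 3 at 84 h and none at 96 h. Without the minimum of 20 UMIs, 6 members were induced (Pou3f1, Zic5, Pax6, Pax3, Irx3, Foxb1) and 4 of them were transient (Pou3f1, Zic5, Pax6, Pax3).

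The genes most like each member over the 25 bulk libraries, by Pearson's r of log2(CPM + 1) among 6305 genes, were taken for the members that reached 50 UMIs in a library. For Pax6 these were Crabp2 (r = 0.94), which binds RA in the cell, Hoxb5 (0.90) and 1700011H14Rik (0.90). For Foxb1 they were Vtn (0.91), Fabp7 (0.89), a radial glia gene, and Lbh (0.89). For Gbx2 they were Gstt2 (0.89), Plac9a (0.88) and Dqx1 (0.87), and for Zic2 they were Fgfr1 (0.87), Col18a1 (0.85) and Polr1e (0.84). Among the members, Zic2 and Pax6 had the highest r (0.75), and Gbx2 and Foxb1 the lowest (-0.20). These are descriptions over libraries that share time and cell composition.

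The axial position of these cells was read from lists of other patterning genes. Of 14 hindbrain and spinal cord genes, 7 reached 20 UMIs in the time course, and 6 of them were induced and transient, among them Hoxb1, Hoxb2 and Hoxb5. The summed level of this list was 30.6 and 28.7 CPM in mESCs, 237 at 24 h, 863 at 48 h and 113 at 96 h. Of 14 forebrain and midbrain genes none reached 20 UMIs, and their summed level stayed between 3.0 and 12.6 CPM over the whole time course. Hoxb2, an RA-responsive hindbrain gene, had 3 and 6 UMIs in mESCs, 1052 at 36 h and 1433 at 48 h. The Hox genes were thus already high at 36 h, when Pax6 was at 7.87 CPM and Foxb1 had no UMI.

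In sorted cells with 2 libraries per group, differences were tested with edgeR's quasi-likelihood test and Benjamini-Hochberg adjustment over 8947 genes. Pax6 and Foxb1 rose in sorted ectoderm-like cells relative to mESCs, Gbx2 and Zic2 fell in sorted XEN-like cells relative to mESCs, and Zic2, Pax6 and Foxb1 were lower in XEN-like than in ectoderm-like cells. 4 of the 9 members (Gbx2, Zic2, Pax6 and Foxb1) passed the low-count filter, each through a group in which it was high. Of all genes tested for ectoderm-like cells against mESCs, 19.1% were called, 9.85% higher and 9.28% lower. For XEN-like cells against mESCs 22.8% were called, 12.3% higher and 10.5% lower, and between XEN-like and ectoderm-like cells 12.7% were called, 6.99% higher and 5.74% lower. The methods of the study call the libraries of all these groups biological replicates, while the labels of the mESC libraries do not name separate cultures.

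**Figure D2:**
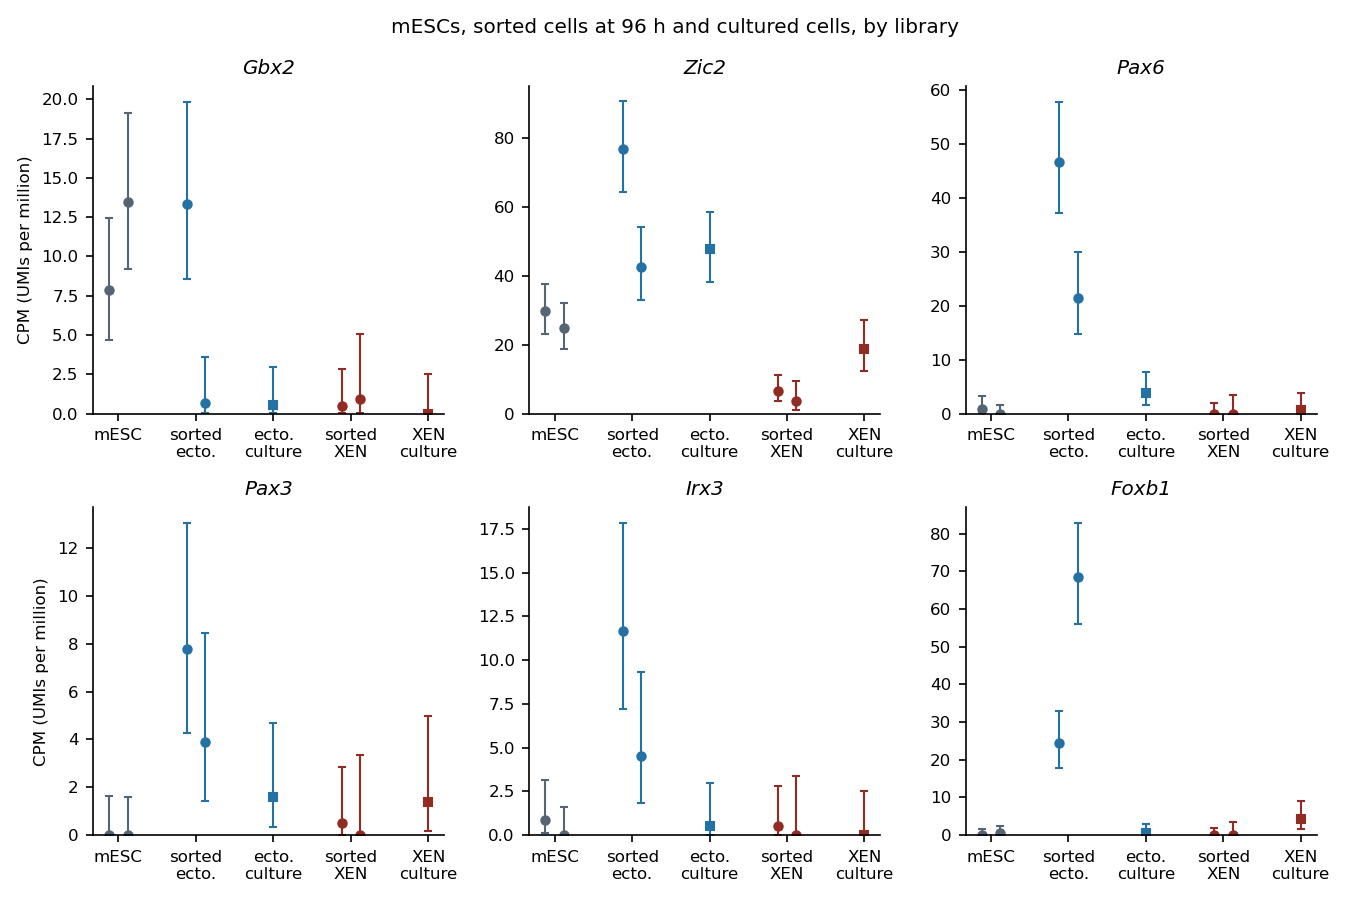
Level (vertical axis, CPM, linear, a separate scale per gene) of 6 members in mESCs, cells sorted after 96 h of RA, and cultures grown from sorted cells. Round points are replicate libraries, squares are single libraries and bars are exact 95% Poisson intervals; Pax6 and Foxb1 had no UMI in either sorted XEN-like library, and Gbx2 differed between the sorted ectoderm-like libraries, at 13.3 and 0.65 CPM.

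Foxb1 stood at 24.5 and 68.5 CPM in the sorted ectoderm-like libraries, at 0 and 0.44 CPM in mESCs and at 0 in both sorted XEN-like libraries, so the ectoderm-like libraries lay apart from all others. Relative to mESCs the log2 difference was 7.08 ± 0.92 (SE, 2 libraries per group, edgeR adjusted p = 0.000543), and the pooled ratio was 205 (36.3 to 8166), which rests on 1 UMI in mESCs. Sorted ectoderm-like cells had at least 45.8-fold more Foxb1 than sorted XEN-like cells, taking 3 counts over both XEN-like libraries as the floor (edgeR adjusted p = 0.00171).

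Pax6 stood at 46.7 and 21.3 CPM in sorted ectoderm-like cells, at 0.87 and 0 CPM in mESCs and at 0 in both sorted XEN-like libraries. The log2 difference between ectoderm-like cells and mESCs was 5.78 ± 0.78 (SE, 2 libraries per group, edgeR adjusted p = 0.000679). Against XEN-like cells Pax6 was at least 35.7-fold higher with the same floor (edgeR adjusted p = 0.00167). The calls of Pax6 and of Foxb1 held in edgeR without each library in turn. At 96 h the whole culture held 7.69 CPM, and sorted ectoderm-like cells of the same time held 4.55 times as much when pooled (2.65 to 8.38). The whole-culture level of Pax6 at 96 h was thus far below that of the sorted ectoderm-like cells, while the summed XEN-like markers of the whole culture were at 12297 CPM; their part in the decline after 60 h was not tested.

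Zic2 stood at 76.7 and 42.6 CPM in sorted ectoderm-like cells, 29.7 and 24.8 in mESCs and 6.60 and 3.65 in sorted XEN-like cells. The 3 groups did not overlap. The ectoderm-like level did not pass the test against mESCs (log2 difference 0.81 ± 0.35, edgeR adjusted p = 0.127), whereas Zic2 fell by 2.55 ± 0.44 on the log2 scale in XEN-like cells relative to mESCs (edgeR adjusted p = 0.00163). It was lower by 3.36 ± 0.43 in XEN-like than in ectoderm-like cells on the same scale (log2 difference -3.36, edgeR adjusted p = 0.00118).

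Gbx2 separated the 2 sorted ectoderm-like libraries. Replicate 1 held 24 UMIs (13.3 CPM, 8.55 to 19.9) and replicate 2 held 1 UMI (0.65 CPM, 0.016 to 3.60), while the mESC libraries held 7.87 and 13.5 CPM and the sorted XEN-like libraries 1 UMI each. It fell in XEN-like cells relative to mESCs (log2 difference -4.12 ± 1.15, edgeR adjusted p = 0.0231). This call was lost without mESC replicate 2 (edgeR adjusted p = 0.0677), without XEN-like replicate 1 (0.167) or without XEN-like replicate 2 (0.0631), each of which leaves 1 library in a group. The ectoderm-like level passed neither test (adjusted p = 0.453 against mESCs and 0.118 against XEN-like cells, edgeR). Without ectoderm-like replicate 1 the log2 difference from mESCs was -4.13 (edgeR adjusted p = 0.0378), and the one between XEN-like and ectoderm-like cells was 0.077 instead of -3.22 (edgeR adjusted p = 1), whereas without ectoderm-like replicate 2 it was -4.01 (edgeR adjusted p = 0.0256).

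The same libraries also differed in other members. Ratios of replicate 1 to replicate 2 were 2.19 for Pax6 (1.45 to 3.38), 1.80 for Zic2 (1.33 to 2.45) and 0.357 for Foxb1 (0.245 to 0.512), intervals that cover counting error only. The summed hindbrain and spinal cord list was at 551 CPM in replicate 1 and 165 CPM in replicate 2. The XEN-like markers given above were higher in replicate 2, and the part of either difference in the member values was not tested.

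Among the members that the low-count filter removed, Irx3 and Pax3 were seen mainly in ectoderm-like cells. Irx3 held 21 and 7 UMIs there (11.7 and 4.52 CPM), 2 and 0 in mESCs and 1 and 0 in XEN-like cells. Pax3 held 14 and 6 UMIs (7.78 and 3.88 CPM), none in mESCs, hence at least 9.13-fold more than in mESCs, and 1 and 0 in XEN-like cells. Without the filter, both were called for ectoderm-like cells against mESCs (edgeR adjusted p = 0.00109 for Irx3 and 0.000772 for Pax3). Otx2 had 1 UMI over the 4 sorted libraries and Zic5 had 2, all in XEN-like cells. Pou3f1 had 7, of which 6 were in ectoderm-like cells.

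Of the other patterning genes, 5 of 6 hindbrain and spinal cord genes tested rose from mESCs to sorted ectoderm-like cells and Cdx1 fell. Among those that rose were Hoxb2, Hoxb3 and Hoxb4. The median log2 difference of the list was 4.29 against 0.05 over all genes tested. Hoxa2, Hoxb2, Hoxb3 and Hoxb4 passed the low-count filter only through the ectoderm-like libraries, where they were high. Nothing is therefore read from this count or median. No forebrain or midbrain gene of 14 passed the low-count filter. Among 18 paralogs of the members, Pou3f2, a neural POU factor, rose in ectoderm-like cells (log2 difference from mESCs 5.20, edgeR adjusted p = 0.00507). Of 10 early neural genes 7 were tested; Sox1, Sox3, Sox21, Nes and Hes5 rose and Sox2 fell in ectoderm-like cells against mESCs. Of the neural crest genes Sox9, Twist1 and Ets1, the 3 tested of 8, all rose. Ets1 also rose in XEN-like cells against mESCs (log2 difference 7.11, edgeR adjusted p = 0.00209). It did not pass the test between XEN-like and ectoderm-like cells (edgeR adjusted p = 0.191). Sox1, Sox3, Sox21, Nes, Hes5, Sox9 and Twist1 passed the low-count filter only through the ectoderm-like libraries, where they were high. Nothing is read from these counts either. Among the dorsal and ventral neural tube lists, with 1 and 2 genes tested, Foxa2, a gene of floor plate and endoderm, rose against mESCs in both ectoderm-like cells (log2 difference 8.10, edgeR adjusted p = 0.000594) and XEN-like cells (8.61, edgeR adjusted p = 0.000265).

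The CD24 terciles at 72 h differed most in Foxb1 among the members with enough UMIs. A gate was called higher at a ratio of at least 2 where the larger of the libraries had at least 20 UMIs, and with 1 library per gate there is no test. Zic2, Pax6 and Foxb1 were higher in T3 than in T1, the 3 members that reached 20 UMIs, where 4.02% of 5426 genes were. Pax6 and Foxb1 reached that minimum only through T3, where they were high, and Gbx2 did not reach it, so nothing is read from this count. At 48 h none of the 3 members with 20 UMIs (Gbx2, Zic2, Pax6) was higher in Q4 than in Q1 by this rule, where 5.05% of 5427 genes were. Cd24a itself, the gene of the sorted antigen, was 6.54-fold higher in Q4 than in Q1 (4.42 to 10.0) and 5.14-fold higher in T3 than in T1 (3.92 to 6.83).

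Foxb1 had 2 UMIs in T1, 2 in T2 and 37 in T3, or 1.55, 1.76 and 28.4 CPM. Most of its UMIs were in the highest CD24 tercile, at a T3 to T1 ratio of 18.3 (4.72 to 157) that rests on the 2 UMIs of T1. Pax6 stood at 9.32 CPM in T1, 20.3 in T2 and 26.1 in T3 (T3 to T1 2.80, 1.41 to 5.94), and Zic2 at 35.7, 52.9 and 75.98 CPM (2.13, 1.48 to 3.09). Irx3 had 3, 4 and 15 UMIs, a T3 to T1 ratio of 4.94 (1.40 to 26.6). Gbx2 showed no gradient, with 6.99, 10.6 and 6.14 CPM (0.878, 0.295 to 2.56).

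At 48 h Q4 was less than 2-fold above Q1 for Pax6, Gbx2 and Zic2. The difference between the 48 h quartiles and the 72 h terciles was not tested. Pax6 stood at 8.03, 5.71, 13.2 and 15.2 CPM from Q1 to Q4 (Q4 to Q1 1.89, 0.908 to 4.14). Gbx2 stood at 13.4, 20.0, 15.98 and 22.7 CPM (1.70, 0.958 to 3.10), and Zic2 at 32.1, 34.3, 29.1 and 39.8 CPM (1.24, 0.838 to 1.84). The intervals of all these ratios include 1. Foxb1 had 0, 2, 1 and 5 UMIs from Q1 to Q4 and Irx3 had 0, 0, 2 and 3, too few for a firm order. Pou3f1 was found in every quartile, with 9, 10, 5 and 12 UMIs, while in the terciles at 72 h it had 3, 1 and 1.

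**Figure D3:**
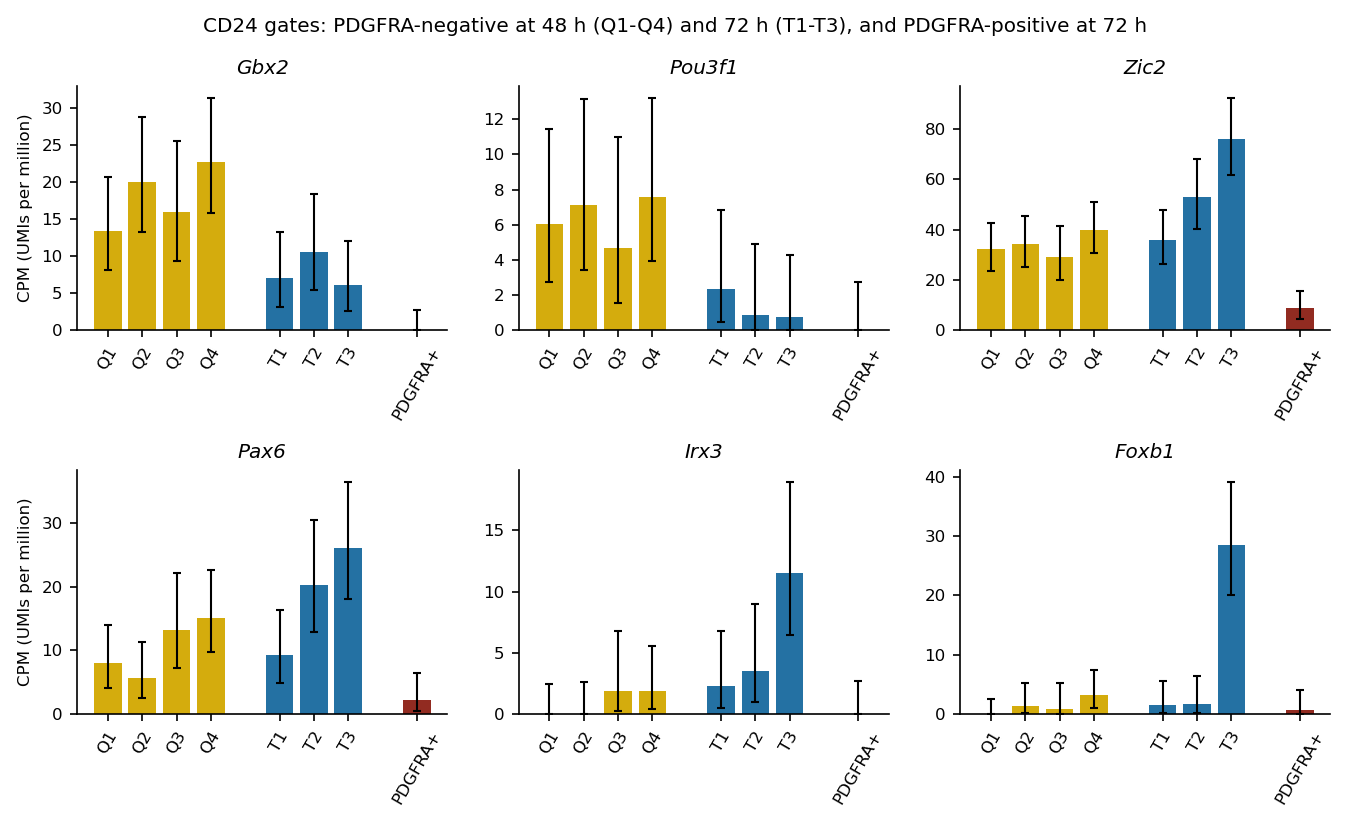
Level (vertical axis, CPM, linear from 0, a separate scale per gene) of 6 members in the CD24 quartiles of PDGFRA-negative cells at 48 h (yellow), the terciles at 72 h (blue) and PDGFRA-positive cells at 72 h (red). Each bar is 1 library and error bars are exact 95% Poisson intervals; Foxb1 stood at 28.4 CPM in T3 against 1.55 in T1 and 1.76 in T2.

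Markers of other states moved with the gates. The summed pluripotent markers were at 6639 CPM in Q1 and 4281 in Q4, and at 4626 in T1 and 1309 in T3. The summed XEN-like markers were at 797 CPM in T1 and 356 in T3, and Pdgfra had 20 UMIs in T1 and 3 in T3. The part of these in the member gradients was not tested. Each of the 4 quartiles was also below the whole culture at 48 h, in which Pax6 stood at 35.4 and Zic2 at 66.7 CPM; Pax6 in Q4 reached 15.2 CPM and Zic2 39.8 CPM. The labels do not say whether the gated cells and the whole culture came from the same culture.

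PDGFRA-positive cells at 72 h held little of any member. Against the mean of T1 to T3, Zic2, Pax6 and Foxb1 were higher in the PDGFRA-negative cells by the 2-fold rule, where 15.8% of 5912 genes were. They reached 20 UMIs only through the negative gates, so nothing is read from this count either. Pax6 had 69 UMIs over the 3 negative gates and 3 in the positive one, a pooled ratio of 8.40 (2.76 to 41.8). Zic2 had 205 and 12 UMIs (6.24, 3.497 to 12.3) and Foxb1 41 and 1 (15.0, 2.54 to 606). Gbx2 had 29 UMIs against 0, at least 3.53-fold higher, and Irx3 22 against 0, at least 2.68-fold higher.

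In the ectoderm-like culture Zic2 had 89 UMIs and Pax6 had 7, while each of the other members had at most 3. The culture was compared with the mean of the sorted ectoderm-like libraries at a fold of at least 2. Gbx2, Pax6, Irx3 and Foxb1 were lower in the culture, 4 of the 5 members with 20 UMIs, where 14.1% of 7649 genes were. These 4 reached the minimum only through the sorted libraries, where they were high, and Gbx2 and Irx3 only through replicate 1, so nothing is read from the count. Without sorted replicate 1, only 3 members reached 20 UMIs, and 2 of them, Pax6 and Foxb1, were lower. Pax6 was at 3.75 CPM in the culture, 9.33-fold below the pooled sorted cells (4.39 to 23.7). Foxb1 had 1 UMI against 150, a ratio of 83.7 (14.8 to 3328), and Gbx2 and Irx3 had 1 UMI each. Zic2 was at 47.6 CPM in the culture, between the sorted libraries (ratio of pooled sorted cells to culture 1.28, 0.993 to 1.66).

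Some other patterning genes had more UMIs in the culture. Zic1, a dorsal relative of Zic2, had 25 UMIs in the culture against 11 and 7 in the sorted ectoderm-like libraries, the higher level of the pair per library size when the sorted libraries are pooled (sorted over culture 0.402, 0.207 to 0.767). Of the 8 hindbrain and spinal cord genes with 20 UMIs, 5 were at least 2-fold lower in the culture, among them Hoxb4 and Hoxb5, and 1 was higher, Egr2, a gene of hindbrain rhombomeres and of Schwann cells (44 UMIs against 0 and 1). The forebrain gene Lhx2 had 33 UMIs against 9 and 0. Of the 5 neural crest genes with 20 UMIs, 4 were at least 2-fold higher in the culture, Snai2 (78 against 4 and 7), Twist1 (77 against 32 and 16), Tfap2a (36 against 9 and 9) and Ets1 (36 against 4 and 9), and Sox9 was not (26 against 25 and 16). The other 3 genes of that list were hardly seen, Sox10 and Foxd3 with no UMI in the culture and Tfap2b with 1. Snai2, Tfap2a, Ets1, Egr2, Lhx2 and Zic1 reached 20 UMIs only through the culture, where they were high. The 5 hindbrain and spinal cord genes that were lower reached it only through the sorted libraries. Nothing is read from these counts, and the share of all genes higher in the culture was not computed. Otx2 had no UMI in the culture. In the XEN-like culture, Zic2 held 27 UMIs (18.6 CPM) and Foxb1 held 6, and the forebrain gene Six3 held 42 UMIs against 1 or 0 in the sorted XEN-like libraries.

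Single cells showed in how many cells each member was detected. In SCRB-seq 2448 wells had more than 2000 UMIs, between 137 cells at 96 h and 335 at 6 h, with a median of 3559 to 5069 UMIs per cell. All 9 files carry the same 384 well names, which are plate positions, and no 2 wells of different files held identical counts. The level was highest at 12 h for Otx2, at 48 h for Gbx2, Pou3f1 and Zic5, at 60 h for Pax6, and at 72 h for Zic2, Irx3, Pax3 and Foxb1. SCRB-seq had no plate at 84 h, where Foxb1 peaked in bulk.

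Pax6 was counted in 0 of 282 cells at 0 h (3 counts allow a share of up to 1.06%) and in 0 of 335 at 6 h (up to 0.896%), then in 2.11% at 12 h, 10.0% at 24 h, 7.78% at 36 h, 9.03% at 48 h, 36.3% at 60 h, 22.1% at 72 h and 5.11% at 96 h. Its level was 0.244 UMIs per 10000 at 48 h and 1.40 at 60 h (ratio 5.75, 4.09 to 8.28). After thinning each cell to 2000 UMIs, 2.89% of cells at 48 h and 19.4% at 60 h held Pax6. At 60 h the 99 cells with Pax6 had a median of 5767 UMIs against 3912 in the 174 without. The ectoderm-like markers were at 23.9 UMIs per 10000 in both, and the XEN-like markers at 14.1 and 16.7. At 96 h the XEN-like markers stood at 49.5 UMIs per 10000 in the 7 cells with Pax6 and at 138 in the 130 without.

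Gbx2 was counted in 4 of 282 cells at 0 h (1.42%, 0.388 to 3.59), in 16.7% at 6 h, 14.7% at 12 h, 12.4% at 24 h, 29.9% at 36 h, 27.8% at 48 h, 23.8% at 60 h, 15.7% at 72 h and in 0 of 137 cells at 96 h (up to 2.19%). The shares at 36, 48 and 60 h were the highest. Between 0 h and 6 h the SCRB-seq level was 17.1-fold higher (6.45 to 63.96), whereas in bulk the 6 h level was 0.594 of that at 0 h (0.296 to 1.11). The bulk interval includes 1, so bulk gave no direction for Gbx2 over the first 6 h. At 12 h bulk lay at 0.4945 of 0 h (0.239 to 0.943). SCRB-seq held 0.303 UMIs per 10000 at 12 h against 0.0212 at 0 h, so the 2 methods went in opposite directions. Zic2 was 3.16-fold higher at 6 h than at 0 h in SCRB-seq (2.20 to 4.65), against 0.986 in bulk (0.705 to 1.36). The source of these differences at 0 h was not tested.

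Pou3f1 was counted in 14.4% of cells at 36 h and 15.2% at 48 h, in 0 of 290 at 24 h (up to 1.03%) and in 3.30% at 60 h. Irx3 was counted in 3.97% of cells at 48 h, 7.69% at 60 h and 10.6% at 72 h, and Pax3 in 8.09% at 72 h, more than at any other time. Otx2 was counted in 1.06% of cells at 0 h, 3.58% at 6 h and 3.16% at 12 h and in none of the 1546 cells from 24 h on, which allows a share of up to 0.194%. Foxb1 was counted in at most 3.40% of cells, at 72 h. Zic2 was counted in 9.57% of cells at 0 h, 27.8% at 6 h, 22.1% at 72 h and 6.57% at 96 h.

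**Figure D4:**
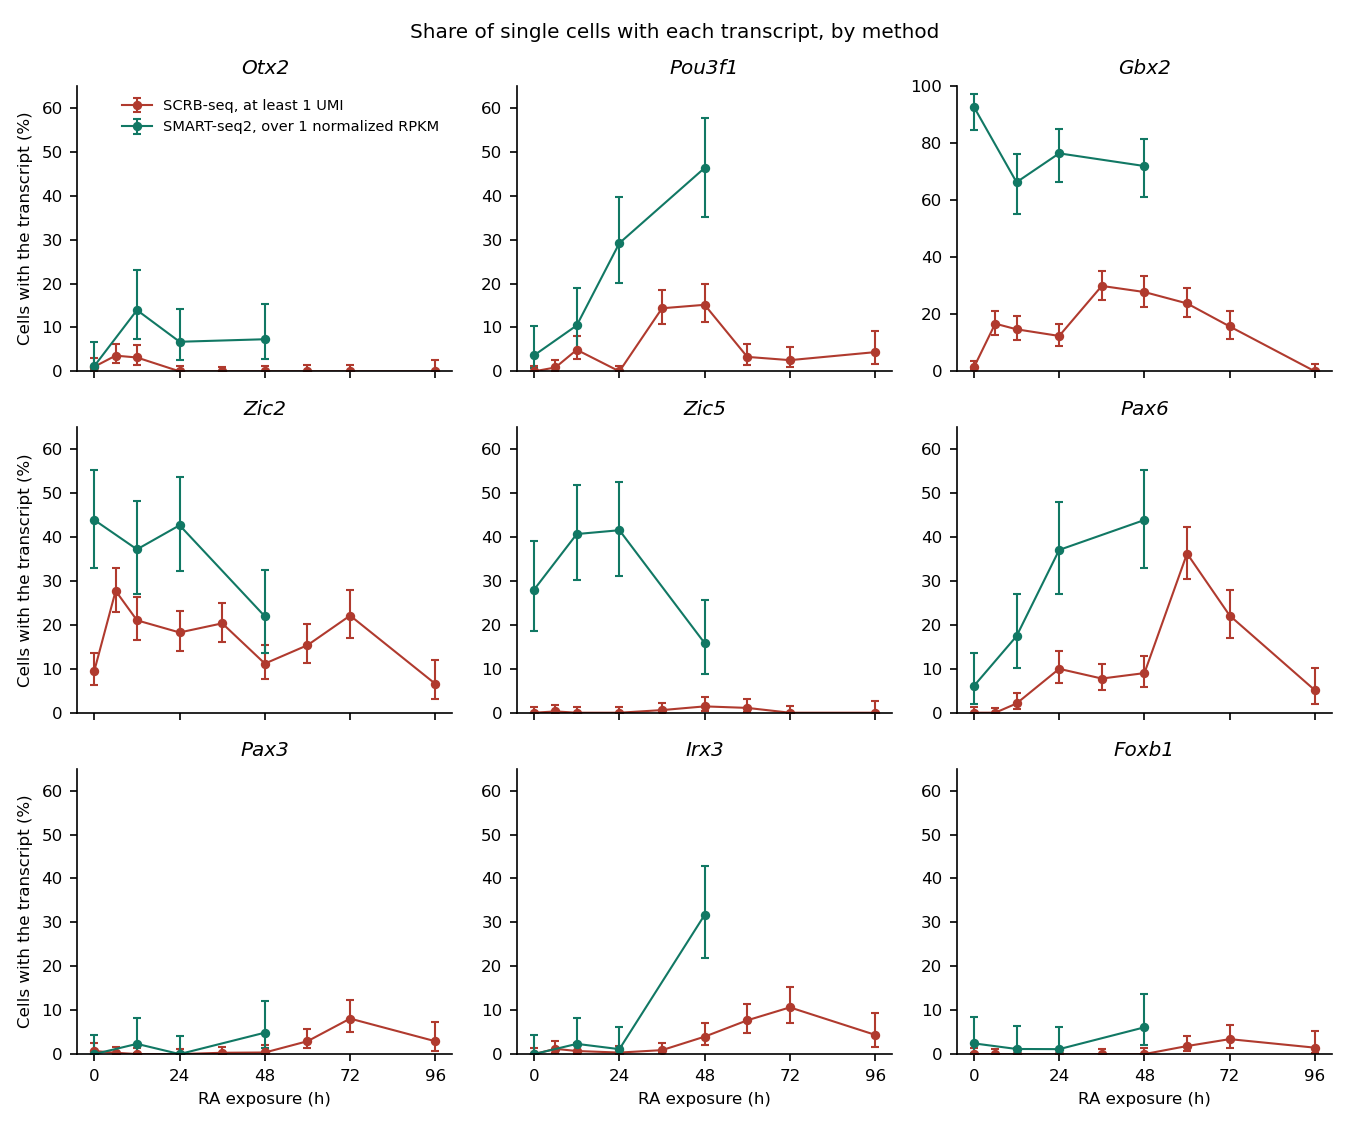
Share of cells (vertical axis, percent) with each member against hours of RA exposure, for SCRB-seq (red, at least 1 UMI in wells with more than 2000 UMIs) and SMART-seq2 (green, over 1 normalized RPKM). Bars are exact 95% binomial intervals and the Gbx2 panel reaches 100%; Gbx2 was in 92.7% of SMART-seq2 cells at 0 h and in 1.42% of SCRB-seq cells, and Zic5 in 41.6% of SMART-seq2 cells at 24 h and in 0% of SCRB-seq cells.

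SMART-seq2 reads whole transcripts and detected most members in more cells. Values are RPKM (reads scaled to transcript length and sequencing depth), which the authors computed and deposited without read counts, so that the depth is unknown. Each cell was rescaled so that its total matched the median 0 h total, and a cell was counted above 1. Gbx2 was above 1 in 76 of 82 cells at 0 h (92.7%, 84.7 to 97.3), 57 of 86 at 12 h (66.3%), 68 of 89 at 24 h (76.4%) and 59 of 82 at 48 h (72.0%). Its median over cells was 40.7 at 0 h, 16.7 at 12 h, 25.4 at 24 h and 41.3 normalized RPKM at 48 h, with a highest cell at 596 at 48 h. As in bulk, the level at 12 h lay below that at 0 h. By 48 h the cells had spread, as more cells lacked Gbx2 than at 0 h and the highest cell was above the highest of 252 at 0 h.

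Pax6 was above 1 in 6.10% of cells at 0 h, 17.4% at 12 h, 37.1% at 24 h and 43.9% at 48 h, so this method found it in a large share of cells well before the bulk peak. Pou3f1 was above 1 in 3.66%, 10.5%, 29.2% and 46.3% of cells at the same times. Irx3 was above 1 in none of the 82 cells at 0 h (up to 3.66%) and in 2.33% at 12 h, 1.12% at 24 h and 31.7% at 48 h, so that nearly all its cells were at 48 h. Otx2 reached 13.9% at 12 h and was at 7.32% at 48 h, whereas SCRB-seq found none from 24 h on. Pax3 and Foxb1 reached 4.88% and 6.10% at 48 h.

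Zic5 was frequent in SMART-seq2 cells and rare in the molecule counts. SMART-seq2 found it in 28.05% of cells at 0 h, 40.7% at 12 h, 41.6% at 24 h and 15.9% at 48 h, while SCRB-seq counted 16 UMIs in all cells and bulk 30 UMIs in all libraries. Zic2 was above 1 in 43.9%, 37.2%, 42.7% and 21.95% of SMART-seq2 cells at the same times. Both Zic genes thus had their lowest share at 48 h in this method, while the bulk level of Zic2 at 48 h was 2.44-fold that at 0 h (1.93 to 3.11). At 48 h, 8 of the 18 cells with Zic2 also had Zic5, which was found in 13 of 82 cells.

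**Figure D5:**
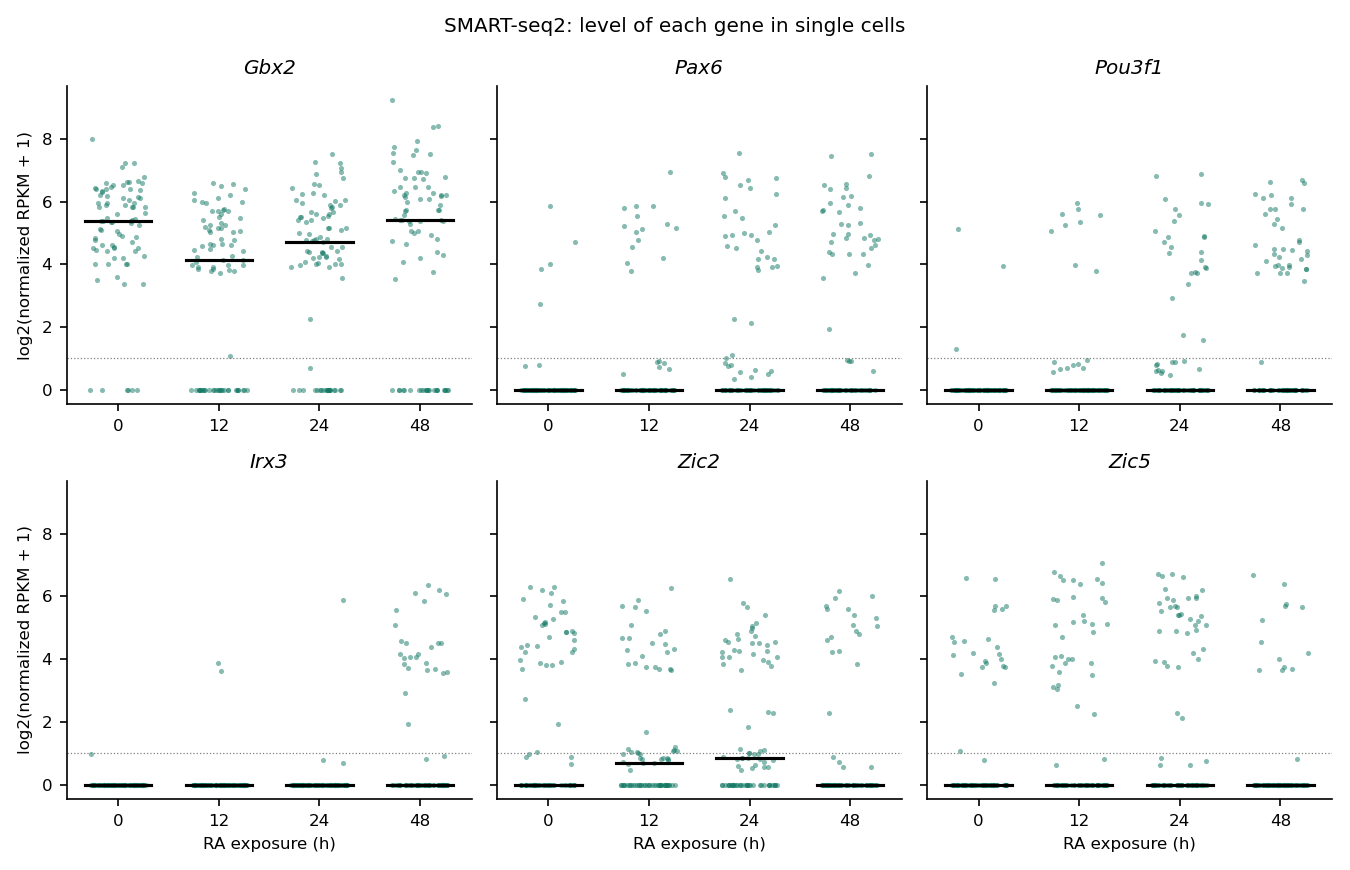
Level in single SMART-seq2 cells (vertical axis, log2 of normalized RPKM + 1) against hours of RA exposure for 6 members; each point is 1 cell, the black line is the median and the dotted line is the threshold of 1 normalized RPKM. Irx3 passed the threshold in 1 of 89 cells at 24 h and in 26 of 82 at 48 h.

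At 48 h more of the 4 members Gbx2, Pax6, Pou3f1 and Irx3 were found in the same cell than at 0 h. Pax6, Pou3f1 and Irx3 were each in a larger share of cells at 48 h. Zic2 and Zic5, in a smaller share, were not counted here. Of Gbx2, Pax6, Pou3f1 and Irx3, 70 of 82 cells at 0 h had exactly 1, which was mostly Gbx2, and none had 3 or 4. At 24 h, 11 of 89 cells had 3, and at 48 h, 22 of 82 cells had 3 and 8 had all 4. At 48 h, 24 of the 26 cells with Irx3 also had Gbx2, and 30 of the 36 cells with Pax6 did, where Gbx2 was in 59 of 82 cells. Across the 82 cells the Pearson r of log2(normalized RPKM + 1) was 0.35 for Gbx2 and Irx3, 0.23 for Pax6 and Irx3, 0.20 for Gbx2 and Pax6 and 0.11 for Pax6 and Pou3f1. These cells share a plate and differ in depth, so the values are descriptions.

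At 48 h, the 29 cells with the most Cd24a, the 10 with the most Pdgfra (3 cells in both) and the 46 in neither were compared, again within 1 set of cells and without a test. Pax6 was above 1 in 17 of 29 Cd24a-high cells (58.6%, 38.9 to 76.5), in 2 of 10 Pdgfra-high cells (20%, 2.52 to 55.6) and in 18 of the other 46 (39.1%, 25.1 to 54.6), with means of 38.2, 14.1 and 13.7 normalized RPKM. Zic2 was above 1 in 17.2% of Cd24a-high, none of the Pdgfra-high and 28.3% of the other cells. Pou3f1 was above 1 in 34.5% of Cd24a-high, 30% of Pdgfra-high and 56.5% of the other cells, and Irx3 in 24.1%, 30% and 34.8%. Gbx2 was above 1 in 72.4%, 60% and 73.9%. The intervals of the classes overlapped for each of these members. Across the 82 cells, Pax6 had an r of 0.31 with Cd24a and -0.28 with Zfp42, a gene of naive pluripotency.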

How the data were processed

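The authors mapped 3′-end reads to RefSeq mRNAs of the mouse (BWA 0.7.4) and deposited UMI counts per gene for the bulk libraries and for each SCRB-seq well. The SMART-seq2 values are RPKM from TopHat and Cuffnorm, which the authors deposited for cells with at least 200000 reads. Members and gene lists were chosen with earlier results of these data known.

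Of the bulk genes, Gkn2 and Rn45s, with text in place of a count, were left out. Counts were divided by library totals. Sorted ectoderm-like, sorted XEN-like and mESC libraries (2 each) were tested in 1 fit of all 6 with edgeR 4.0.16 in R 4.3.3 (TMM, filterByExpr, quasi-likelihood test, Benjamini-Hochberg adjustment, threshold 0.05), with DESeq2 1.42.0 as an alternative. The fit was also run on simulated data with known changes. SE is the log2 difference divided by the root of F. The biological coefficient of variation in this fit was 0.247. Groups of 1 library were described with exact Poisson intervals, and ratios with exact binomial intervals given both counts together. A fold against 0 used 3 counts over the group. A SCRB-seq well entered above 2000 UMIs, and no doublet caller was run. SMART-seq2 text values with a decimal comma, at most 0.14% and all below 1, were read as 0. The sizes of the Cd24a-high and Pdgfra-high classes follow the methods of the study.

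All 9 members are named; list genes are named if called in a sorted comparison or among the 4 with the most UMIs of their list. Egr2 and Tfap2a, list genes outside this rule, were chosen after seeing their values. Some list genes that the rule names are not reported here. Coordinates are from GENCODE M21 (GRCm38). Python 3.11.15, numpy 2.4.6, pandas 2.3.3, scipy 1.17.1 and matplotlib 3.10.9 were used.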

Additional observations from a re-analysis of the deposited data

Results flagged for a closer look

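For Gbx2 the ratio of the top to the bottom CD24 gate lay above 1 at 48 h and below 1 at 72 h, although neither time showed a steady order over the gates. The top gate was 1.70 times the bottom gate at 48 h (36 against 20 UMIs, 0.958 to 3.10) and 0.878 times at 72 h (8 against 9 UMIs, 0.295 to 2.56). Each gate is 1 library, both intervals include 1, and the difference between the times was not tested.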

How the results depend on the processing

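Scaling to Gapdh, to Actb or by TMM over the bulk libraries kept every count of members in the time course, gates and culture, and DESeq2, library totals alone, RLE size factors and a fit of 4 libraries kept every count of members called by edgeR within 1.5 times. Library totals alone moved the median log2 difference of all genes from 0.05 to 0.36 for ectoderm-like cells against mESCs, from -0.06 to 0.15 for XEN-like cells against mESCs and from -0.06 to -0.16 for XEN-like against ectoderm-like cells. Without a low-count filter, 4 instead of 2 members were called for ectoderm-like cells against mESCs and 6 instead of 3 for XEN-like against ectoderm-like cells. Without the minimum of 20 UMIs, the counts were 6 induced and 4 transient members, 5 higher in T3, and 5 higher in PDGFRA-negative cells. Leaving out each library in turn gave 2 to 3 members for ectoderm-like cells against mESCs, 1 to 2 for XEN-like cells against mESCs, 3 to 4 for XEN-like against ectoderm-like cells, and 2 to 4 lower in the culture. The log2 difference of Gbx2 between XEN-like and ectoderm-like cells ranged from -4.01 to 0.077 when libraries were left out, with 0.077 without ectoderm-like replicate 1, in which 24 of its 25 UMIs lie. With fewer libraries, 296 to 667 genes were called for XEN-like against ectoderm-like cells (1139 with all), 876 to 1351 for ectoderm-like cells against mESCs (1711) and 1267 to 1662 for XEN-like cells against mESCs (2042). The sorted groups share replicate numbers, but the labels name nothing that pairs them. The deviations of same-numbered libraries had a correlation of 0.33 over 8947 genes, and with the replicate number as a block, on the 4 sorted libraries, 3 members were called (Zic2, Pax6, Foxb1), as without it. The block called 2620 genes in all, against 1261 in the same libraries without it. In SCRB-seq, 4 members peaked between 36 and 60 h under every cell threshold and after thinning; the Otx2 peak moved from 12 to 6 h in wells with more than 4000 UMIs. In SMART-seq2, 6 members had a larger share at 48 h than at 0 h under every setting.

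With 1 library per time point and gate, only counting error is known there. Members with fewer than 20 UMIs (Otx2, Zic5, Pax3 and, in whole cultures, Pou3f1 and Irx3) allow no firm order at this depth, and absence in SCRB-seq cells is absence of a captured molecule at a median of 3559 to 5069 UMIs per cell.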
